A study of Mus musculus with 2 samples.

Results

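The array on which the Nr5a2-EGFP clone was hybridised against the Oct4-EGFP clone gave ratios for 26129 genes, out of 26830 genes measured on the series' 2 arrays together. A gene was taken when its brightest probe was well above background in at least 1 dye, and each ratio is the Nr5a2-EGFP clone (Cy5) over the Oct4-EGFP clone (Cy3), on the log2 scale. Both clones are monoclonal lines of mouse ZHBTc4 embryonic stem (ES) cells, in which the endogenous Oct4 alleles are disrupted and a doxycycline-repressed transgene supplies Oct4 in their place. Clone 9 carried pCAG-IP/Oct4-EGFP and clone 26 carried pCAG-IP/Nr5a2-EGFP, vectors in which the ubiquitously active CAG promoter drives the fusion gene. Both were grown on gelatin without feeder cells in 15% serum with 1000 IU/ml of leukemia inhibitory factor (LIF), and both received doxycycline before harvest, for a time the labels do not give. The comparison therefore sets ES cells whose regulated Oct4 is shut off and which carry Nr5a2-EGFP against ES cells in the same state which carry Oct4-EGFP. The other array set the same Nr5a2-EGFP clone (Cy5) against EGFP clone 2-5 (Cy3), which carried pCAG-IP/EGFP and had the same culture and treatment; it is used here for a repeat reading of the Nr5a2-EGFP clone and for values side by side.

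Oct4, encoded by Pou5f1, is a POU-domain transcription factor that ES cells need to stay pluripotent. When it is lost, ES cells turn towards trophectoderm, the outer layer of the blastocyst that builds the placenta, and they switch on factors such as Cdx2 and Gata3. Nr5a2 (also called Lrh-1) is an orphan nuclear receptor that binds DNA as a monomer, regulates Oct4 itself in ES cells and epiblast, and governs bile acid and steroid genes in liver and other tissues. The comparison asks which genes stand at another level when Nr5a2 is supplied in place of Oct4.

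There was 1 array, 1 clone per transgene and no dye swap, so no test was made, and a clone's transgene, its other differences and the dye cannot be told apart. The Nr5a2-EGFP clone was read in Cy5 on both arrays, and the Oct4-EGFP and EGFP clones in Cy3. Where the Nr5a2-EGFP clone stands apart from both of them below, clone and dye cannot be told apart either. A gene counted as higher or lower at a ratio of at least 2-fold, a log2 ratio of at least 1 or at most -1. By that rule the Nr5a2-EGFP clone had 1173 higher genes (4.49%) and 1884 lower genes (7.21%), together 11.7% of the genes measured. At 4-fold the counts were 152 higher and 334 lower, at 8-fold 23 and 39, and at 16-fold 6 and 5. The median log2 ratio over all genes was 0.01 and the SD 0.69. Lower genes thus outnumbered higher genes at 2-, 4- and 8-fold, and not at 16-fold.

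**Figure D1:**
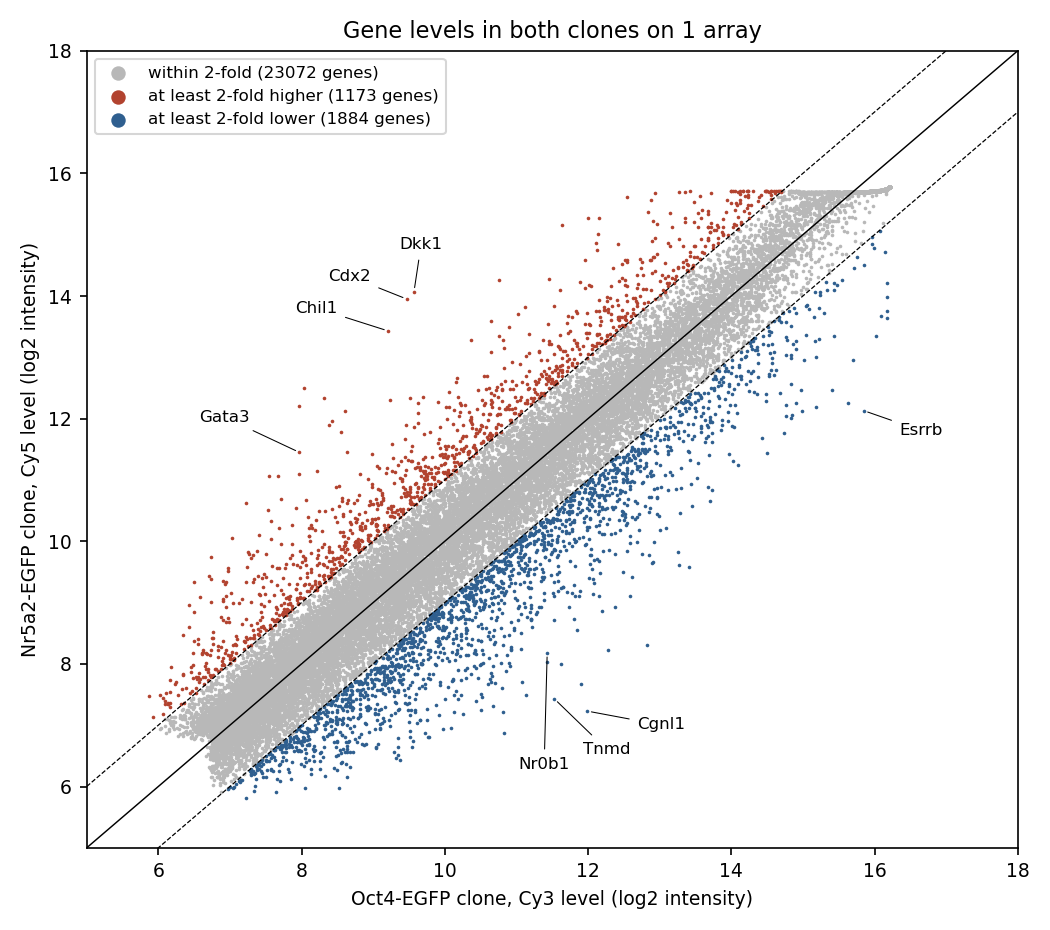
Each point is a gene, placed by its normalised log2 level in the Oct4-EGFP clone (horizontal) and in the Nr5a2-EGFP clone (vertical); the solid line marks equal levels and the dashed lines 2-fold. The 1173 higher and 1884 lower genes are coloured, and the flat upper edge holds genes that were saturated in Cy5.

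The array had 43020 spots, of which 80.1% (Cy3) and 78.1% (Cy5) were well above background. Saturation touched 1134 genes in the Nr5a2-EGFP clone and 315 in the Oct4-EGFP clone. Of these, 307 were saturated in both clones and have no order. The ratios of the others are bounds only where the saturated clone is the brighter. Of the genes measured, 1083 were above background in the Oct4-EGFP clone alone and 519 in the Nr5a2-EGFP clone alone. The precision is that of 1 array; among 399 probes printed 10 times, the median SD of the log2 ratio over spots was 0.066. With the genes divided by mean brightness into 5 classes of equal size, the share at least 2-fold apart was 6.77% in the dimmest class, 15.9% in the middle class and 9.53% in the brightest. ES cell markers were lower in the Nr5a2-EGFP clone (0 higher and 5 lower of 10) and trophectoderm markers higher (7 higher and 0 lower of 9), with median log2 ratios of -1.16 and 1.53. Of the other cell types' markers, 1 of 7 for primitive endoderm was higher and 1 lower, and 0 of 5 for fibroblasts was higher and 1 lower; the fibroblast collagen Col1a1 read 7.88 in the Oct4-EGFP clone against 7.46. In these bulk samples, fewer cells of a type and less RNA per cell cannot be told apart.

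Of the transgenes' own genes, Nr5a2 read in the direction opposite to the labels and Pou5f1 was dim. Nr5a2 had 2 probes on chromosome 1 of mm9. The brighter, at chr1:138740903-138740962, had a level of 11.58 in the Oct4-EGFP clone and 10.44 in the Nr5a2-EGFP clone, a log2 ratio of -1.14, and the other, at chr1:138741712-138741771, gave -0.63. On the other array the brighter probe read 10.38 in the Nr5a2-EGFP clone and 11.3 in the EGFP clone, and the other probe 8.01 and 8.4. Nr5a2 thus read lower in the clone labelled as carrying it than in either other clone, at both probes. Pou5f1, with 1 probe at chr17:35647280-35647340, read 7.59 in the Oct4-EGFP clone and 6.69, not well above background, in the other, which gives a bound of at least 1.87-fold in favour of the Oct4-EGFP clone. On the other array Pou5f1 read 7.49 in the Nr5a2-EGFP clone and 7.61 in the EGFP clone. With that repeat reading the bound does not hold, so Pou5f1 has no clear order among the clones. These are levels near the bottom of the array, where the lowest level well above background was 6.65 in Cy3 and 6.69 in Cy5. The sources used here do not say which part of each transcript the transgenes carry, so the probes do not check the labels, and directions below are those of the clones as labelled.

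Promoter sequence was searched for 5 motifs, since Oct4 and Nr5a2 act through short motifs in DNA. RefSeq (GRCm38.p6) promoters matched 14405 of the 18697 measured genes with an official symbol, and the 250 bases before each annotated start were searched on both strands. The octamer ATGCAAAT, the site of POU factors, was in 1.43% of all 17877 promoters, in 1.71% of those of higher genes and in 1.19% of those of lower genes. The extended half-site TCAAGGTCA, which Nr5a2 and Esrrb bind as monomers, was in 0.296% of all, 0.201% of higher and 0.42% of lower genes' promoters. These shares rest on few promoters: 53 of all, 2 of 997 before higher genes and 6 of 1430 before lower genes. TTTATGG, a form of the caudal site that Cdx2 binds, was in 1.98%, 1.91% and 1.82%. AGATAA, bound by GATA factors, was in 7.43%, 5.82% and 6.50%, and TATAAA, the TATA box, in 9.37%, 7.02% and 7.55%. Among the 143 promoters of genes at least 4-fold higher, 6 held the caudal site (4.20%) and 2 the octamer (1.40%). The 6 include overlapping promoters of Cntfr that hold the same site, and the probes of Cntfr disagreed in direction, as given below. Among the 265 of genes at least 4-fold lower, 8 (3.02%) and 6 (2.26%) did, and 25 (9.43%) held AGATAA. Median GC content was 60.4% before higher and 59.6% before lower genes, against 57.6% over all promoters. The 4 promoters below are shown because their genes stand for both directions: Cdx2 (log2 ratio 4.48) and the growth arrest gene Gadd45g (1.92) were higher, Zfp42 (-2.13, or -0.99 with the Nr5a2-EGFP clone as read on the other array) and Lurap1l (-3.27) lower. All 4 were picked after their values were seen, as genes whose promoters hold the octamer. Capitals mark the octamer, on either strand.
Cdx2, chr5:147307250-147307499, minus strand: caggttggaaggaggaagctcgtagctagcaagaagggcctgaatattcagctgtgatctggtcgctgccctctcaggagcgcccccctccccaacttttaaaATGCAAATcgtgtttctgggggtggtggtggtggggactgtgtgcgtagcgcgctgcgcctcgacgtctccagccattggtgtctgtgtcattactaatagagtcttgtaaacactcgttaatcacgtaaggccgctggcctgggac
Zfp42, chr8:43307010-43307259, minus strand: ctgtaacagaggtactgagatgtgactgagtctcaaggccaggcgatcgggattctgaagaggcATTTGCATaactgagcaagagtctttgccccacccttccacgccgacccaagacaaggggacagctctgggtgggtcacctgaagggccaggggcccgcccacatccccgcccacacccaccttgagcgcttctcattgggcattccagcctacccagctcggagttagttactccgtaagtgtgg
Lurap1l, chr4:80910436-80910685, plus strand: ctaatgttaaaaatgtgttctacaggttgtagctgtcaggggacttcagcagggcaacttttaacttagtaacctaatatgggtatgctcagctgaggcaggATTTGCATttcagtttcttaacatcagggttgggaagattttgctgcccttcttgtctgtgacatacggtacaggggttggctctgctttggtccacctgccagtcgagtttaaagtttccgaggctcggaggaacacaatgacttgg
Gadd45g, chr13:51846425-51846674, plus strand: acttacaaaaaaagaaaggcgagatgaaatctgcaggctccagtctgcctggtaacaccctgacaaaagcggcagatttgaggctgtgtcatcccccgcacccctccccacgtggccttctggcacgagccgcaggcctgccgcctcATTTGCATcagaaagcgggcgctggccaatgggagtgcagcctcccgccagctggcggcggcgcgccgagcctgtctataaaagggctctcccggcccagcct
The octamer began 147 bases before the start of Cdx2, 186 before that of Zfp42, 148 before that of Lurap1l and 103 before that of Gadd45g. The 4 were chosen to hold the octamer and to cover both directions, so only the shares above compare higher with lower genes. A match is a description of the sequence and was not set against binding.

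The highest ratio was that of Dkk1, a secreted Wnt inhibitor, at chr19:30621424-30621483: its level was 9.57 in the Oct4-EGFP clone and 14.07 in the Nr5a2-EGFP clone, 22.6-fold higher, and 14.24 in the repeat reading. Cdx2, the homeobox factor that specifies trophectoderm, at chr5:148112547-148112606, had levels of 9.47 and 13.95, 22.4-fold higher. In the EGFP clone Dkk1 read 11.54 and Cdx2 14.19, so the Nr5a2-EGFP clone lay above the EGFP clone for Dkk1 and beside it for Cdx2. Gata3 (log2 ratio 3.48) and Gata2 (3.12), zinc-finger factors of trophoblast, were 11.2-fold and 8.70-fold higher. Gata3 read 7.97 in the Oct4-EGFP clone and 11.45 in the Nr5a2-EGFP clone, with 10.55 in the EGFP clone. Gata2 read 12.15, 15.28 and 14.39 in the same order. For both, the Nr5a2-EGFP clone was the highest of the 3 clones.

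Imprinted and X-linked reproductive homeobox genes were the next group among the 20 highest ratios. Phlda2, which restrains placental growth, was 10.5-fold higher, Peg10, a retrotransposon-derived gene needed for the placenta, 9.73-fold, and Sfmbt2, a Polycomb-related gene imprinted in trophoblast, 9.38-fold. Rhox6 and Rhox9, homeobox genes on the X chromosome, were 11.5-fold and 11.3-fold higher. Sfmbt2 read 8.55 in the Oct4-EGFP clone, 11.78 in the Nr5a2-EGFP clone and 13.92 in the EGFP clone, and Rhox6 read 8.61, 12.13 and 13.26. For Sfmbt2 and Rhox6 the Nr5a2-EGFP clone thus lay between the other clones. Cebpb, a leucine-zipper factor of stress and differentiation, was 11.5-fold higher at 15.16 against 11.64. The remaining members were the chitinase-like Chil1 (18.6-fold), the pantetheinase Vnn1 (16.2-fold), the alcohol dehydrogenase Adh1 (11.5-fold), Dmrtc1b (10.5-fold), Sez6 (8.81-fold), Tbrg4 (8.43-fold), AU015836 (8.39-fold), the fibrinogen chain Fgg (8.15-fold), the calcium-binding Cabp7 (7.89-fold) and the immunity-related GTPase Irgm2 (7.87-fold). Cabp7 read 7.71 in the Oct4-EGFP clone and 7.45 in the EGFP clone against 10.69 in the Nr5a2-EGFP clone. It was thus high in 1 of 3 clones, the clone read in Cy5.

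The lowest ratios joined regulators of the ES cell state with genes of other functions. Cgnl1, a cingulin-like protein of cell junctions, at chr9:71479594-71479653, had the lowest ratio of all genes: its level was 11.99 in the Oct4-EGFP clone and 7.23 in the Nr5a2-EGFP clone, 27.0-fold lower. It read 6.77 in the EGFP clone, near the bottom of the range. Esrrb, an orphan nuclear receptor of the naive pluripotency network, at chr12:87862509-87862568, read 15.85 and 12.13, 13.2-fold lower, and its repeat reading of 10.68 lay below the 12.98 of the EGFP clone. Nr0b1 (Dax1), a nuclear receptor that binds both Nr5a2 and Oct4, read 11.43 and 8.18, 9.54-fold lower, and its SD over 10 spots was 0.061. In the EGFP clone Nr0b1 stood at 6.37, so the Oct4-EGFP clone was the high one of 3.

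Among the other 20 lowest ratios were membrane and secreted proteins: tenomodulin (Tnmd, 17.2-fold lower), the dipeptidyl peptidase Dpp4 (12.3-fold), the proteoglycan Spock2 (10.4-fold), the taste receptor Tas2r125 (12.5-fold), the pregnancy-specific glycoprotein Psg18 (11.1-fold), the proprotein convertase Pcsk6 (9.77-fold), stomatin (Stom, 9.22-fold) and the mitochondrial carrier Slc25a35 (9.48-fold). Tmcc2 was 18.7-fold lower, Skida1 16.6-fold, Aspdh 14.2-fold, Arl4d 12.7-fold, Tbc1d16 10.8-fold, Nol4 10.2-fold, Lurap1l 9.65-fold and Mppe1 8.44-fold. Pcsk6, which activates Nodal and related ligands, had another pattern from its neighbours: it read 11.85 in the Oct4-EGFP clone and 11.82 in the EGFP clone against 8.56 in the Nr5a2-EGFP clone. For Pcsk6 it was thus the Nr5a2-EGFP clone, read in Cy5, that stood apart from the other clones, read in Cy3.

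**Figure D2:**
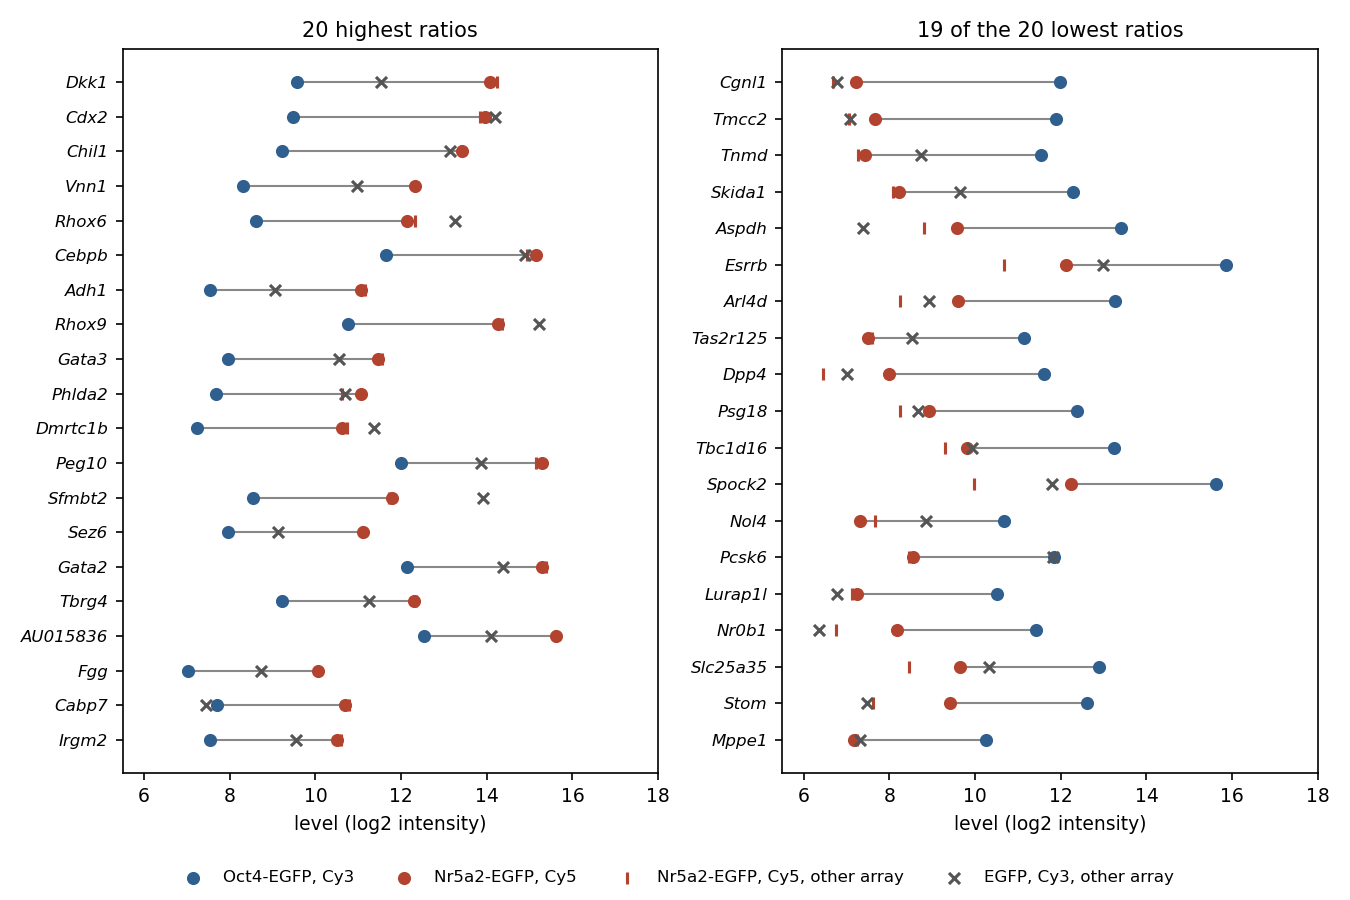
Normalised log2 levels of the genes with the 20 highest ratios (left) and of 19 of the 20 with the lowest (right); filled points are the Oct4-EGFP and Nr5a2-EGFP clones on the array compared, joined by a line, and the bar and cross are the Nr5a2-EGFP and EGFP clones on the other array. The crosses of Cdx2, Chil1 and Rhox9 lie near or above the Nr5a2-EGFP clone, and that of Cabp7 lies beside the Oct4-EGFP clone.

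Where 1 dye was not well above background, a ratio is given as a lower bound. It is set by the dim dye's own level or the lowest level well above background, whichever is higher. For Mug1, 4930598N05Rik, Degs2 and Plcxd3 below, the bound equals the measured ratio. The largest bounds on the side of the Nr5a2-EGFP clone were those of the interferon-induced Oasl2, at least 6.44-fold higher, the protease inhibitor Mug1 (at least 6.31-fold) and the X-linked kinase Nrk (at least 5.44-fold). They went on with Adgre1 (at least 4.95-fold), 4930598N05Rik (at least 4.83-fold), the growth factor Igf2 (at least 4.60-fold), Klk1 (at least 3.86-fold), Serpina1d (at least 3.52-fold), Mindy4 (at least 3.35-fold) and Gm11728 (at least 3.29-fold). Igf2 read 8.85 in the Nr5a2-EGFP clone here and 7.29 on the other array, which lowers its measured log2 ratio from 2.35 to 0.79. The probes of Mindy4 gave 0.15 and 1.84. Mug1 read 9.39 in the Nr5a2-EGFP clone and 6.63 in the EGFP clone, so it too was high in 1 of 3 clones. In the other direction the bounds were those of Bpi (at least 7.18-fold lower), the stress kinase Mapk8 (at least 6.46-fold), Dnajc6 (at least 6.30-fold), Ldhd (at least 6.25-fold), 6720483E21Rik (at least 6.18-fold), Degs2 (at least 4.41-fold), Olfr767 (at least 4.07-fold), Plcxd3 (at least 3.98-fold), Btbd17 (at least 3.96-fold) and Pdzd3 (at least 3.87-fold). The 3 probes of Mapk8 ranged from -2.95 to 0.09, so its bound rests on the brightest.

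Of the 48 function lists, which leave out the cell type markers above, pluripotency factors had the lowest median. The counts given for each list stand beside 4.49% higher and 7.21% lower among all genes. Of 36 core and naive factors measured, 17 were lower and 3 higher, with a median log2 ratio of -0.92 against 0.01 for all genes; the list's median ratio to the EGFP clone, on the other array, was -0.13. Foxd3, a forkhead factor, read 9.55 in the Oct4-EGFP clone and 6.74 in the Nr5a2-EGFP clone, 7.04-fold lower. Prdm14, a repressor of differentiation and FGF signalling, read 10.79 and 8.59, 4.61-fold lower. Zfp42 (Rex1), a marker of naive ES cells, read 14.01 and 11.88, 4.39-fold lower, but 13.02 on the other array, which gives a log2 ratio of -0.99. Klf4, Klf5 and Klf2, Krüppel-like factors that hold up self-renewal, had log2 ratios of -2.12, -1.80 and -1.80. Zfp57, which keeps imprints methylated, had -2.07 and Tcl1, a cofactor of Akt, -1.85. Sox2, the partner of Oct4 on DNA, read 13.41 and 11.45, 3.88-fold lower, and 11.95 in the repeat reading. For Sox2 the EGFP clone stood at 11.93, beside the Nr5a2-EGFP clone. Tfcp2l1 had -1.24 and -0.97 at its 2 probes. The factors named here are core members or have large ratios in the list, and other members were higher or had no order, as given next.

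Nanog, the homeobox factor of the core network, could not be ordered: it was saturated in both clones, at 16.18 and 15.75, while the EGFP clone read 13.98. Tbx3 and Sall4 were saturated in the Nr5a2-EGFP clone, with bounds of at least 1.83-fold and 1.79-fold higher than in the Oct4-EGFP clone. The 3 factors at least 2-fold higher were Sp5 (log2 ratio 1.88), a Wnt target gene, Tcf7l1 (1.27), a Wnt-pathway repressor of pluripotency genes, and Lin28a (1.02), an RNA-binding protein. Sp5 read 9.26 in the Oct4-EGFP clone, 11.14 in the Nr5a2-EGFP clone and 11.26 in the EGFP clone, so its low clone was the Oct4-EGFP clone.

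Other ES cell markers stood nearer to the Oct4-EGFP clone. Of 42 surface, secreted and cytoplasmic markers, 4 were higher and 10 lower, with a median of -0.33. Fgf4, the ES cells' own FGF ligand, was saturated in Cy3 and read 13.64 in Cy5, at least 5.77-fold lower in the Nr5a2-EGFP clone. Tcea3 (-2.80), Pipox (-2.54), Fbxo15 (-1.92) and the threonine dehydrogenase Tdh (-1.45) were lower as well. Utf1 (-0.31), Tdgf1 (-0.30) and Dppa4 (-0.49) stayed within 2-fold, although 1 of 3 probes of Tdgf1 gave -1.97. Dnmt3l, a cofactor of de novo DNA methylation, was 3.45-fold higher, and Calcoco2 4.03-fold.

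Trophectoderm factors leaned the other way. Of 39 measured, 12 were higher and 4 lower, with a median of 0.45, against 0.07 in the ratio to the EGFP clone. Beside Cdx2, Gata3 and Gata2, Hand1, a factor of trophoblast giant cells, read 9.45 in the Oct4-EGFP clone and 11.66 in the Nr5a2-EGFP clone, 4.62-fold higher. In the EGFP clone Hand1 read 13.07. Esx1, an X-linked placental homeobox gene, read 10.52, 12.31 and 13.81 in the same order, so for Hand1 and Esx1 the Nr5a2-EGFP clone lay between the others. Klf6 (1.72), Arid3a (1.41), Tfap2c (1.35), Id2 (1.34), Pparg (1.30) and the spongiotrophoblast factor Ascl2 (1.05) were higher, and Grhl2 had 1.98 and 0.51 at its 2 probes. Eomes, which maintains trophoblast stem cells, had 0.52. Sox15, a factor of giant cells that ES cells also express, was the lowest member at -2.08.

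**Figure D3:**
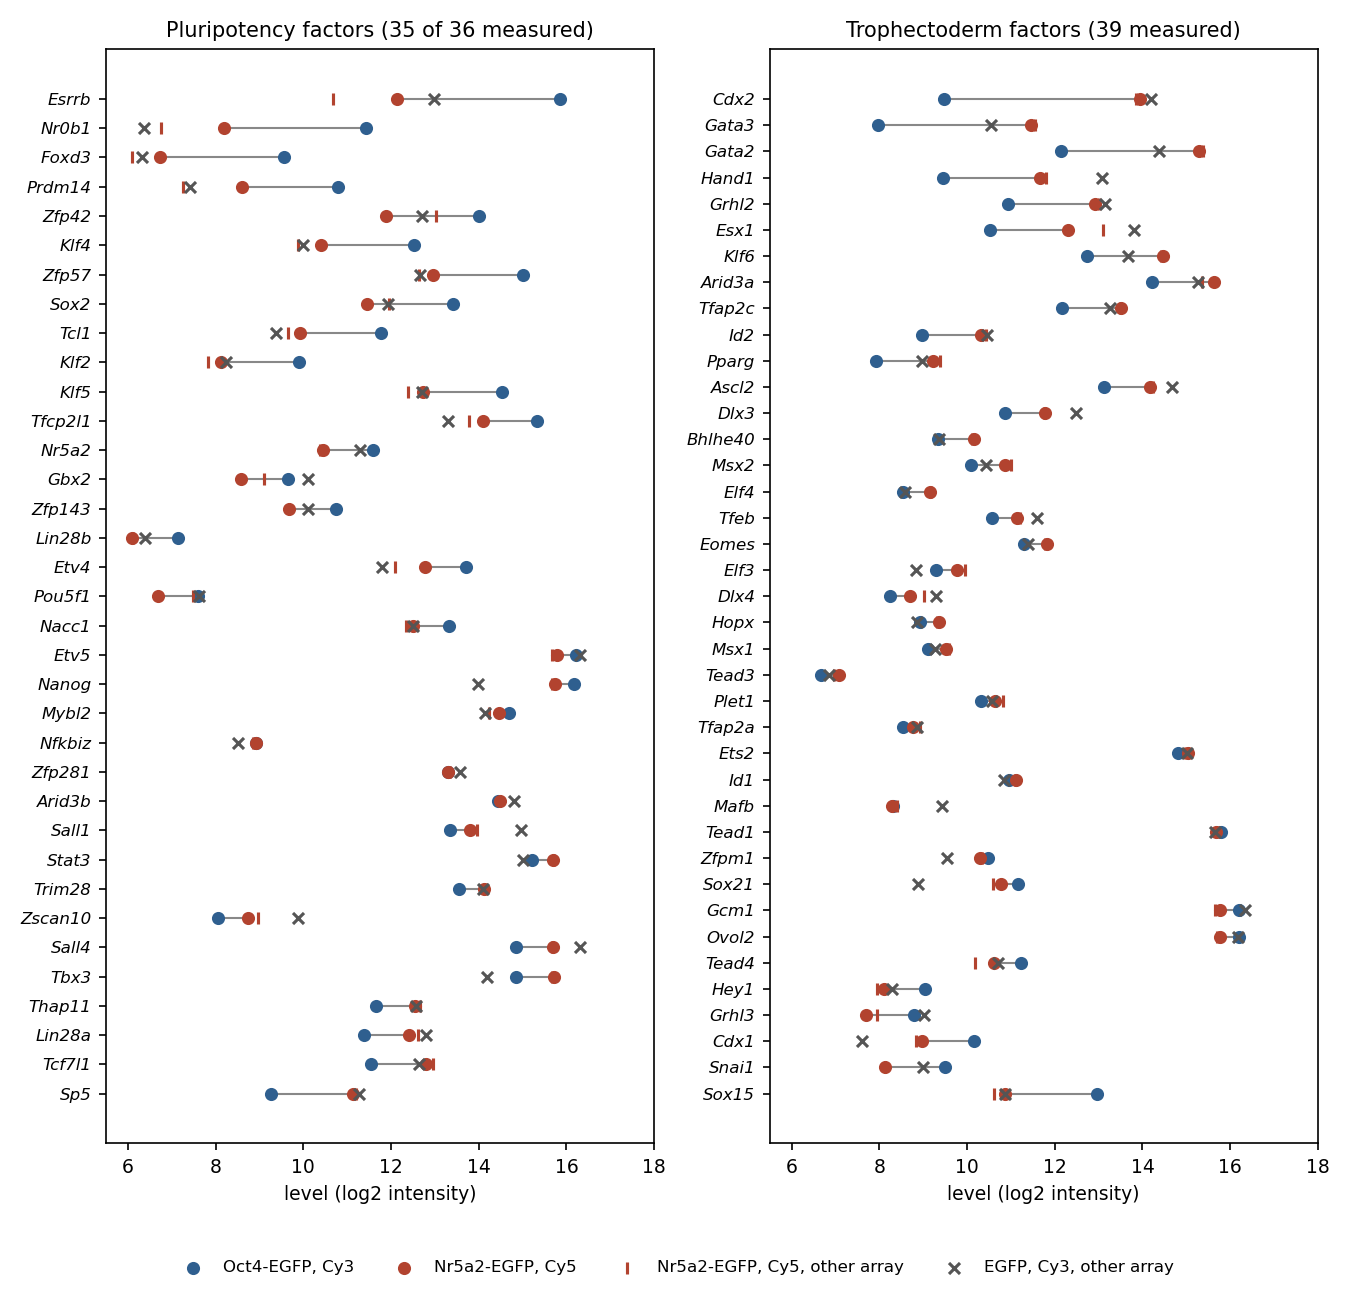
Normalised log2 levels of 35 of the 36 pluripotency factors (left) and 39 trophectoderm factors (right), ordered by ratio, with the same symbols as for the extreme genes. In the left panel the Oct4-EGFP clone is to the right of the Nr5a2-EGFP clone for the upper genes, and in the right panel to the left of it.

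Structural genes of trophoblast and epithelium followed in the same direction. Of 70 trophoblast structural and secreted genes, 19 were higher and 6 lower, with a median of 0.36. Keratins of simple epithelium were among them: Krt8 read 10.66 and 12.19, 2.89-fold higher, and its partner Krt18 read 12.54 and 14.58, 4.11-fold higher. Plac1, a placental membrane protein, was 4.47-fold higher, the gap junction protein Gjb2 5.27-fold, and the tight junction protein Cldn6, saturated in Cy5, at least 6.68-fold. Lcp1, an actin-bundling protein, had log2 ratios of 4.25 and 0.97 at its 2 probes. Aqp3, a water and glycerol channel, was 6.30-fold lower. Of 40 tight and gap junction genes, 8 were higher and 2 lower; the higher ones included cingulin (Cgn, log2 ratio 1.93) and Cldn4 (3.14-fold), while the cingulin-like Cgnl1 and Cldn11 (6.09-fold) were the lower ones. Cingulin and its relative Cgnl1 thus stood on opposite sides. Of 33 mesenchymal genes, 2 were higher and 7 lower, among them Twist1 (-2.60) and Mmp2 (-1.84).

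Of 59 imprinted genes, 11 were higher and 1 lower, with a median of 0.20. Kcnq1ot1, the long non-coding RNA that silences its imprinted cluster, was 6.31-fold higher at its brighter probe and had 1.21 on the log2 scale at the other. Kcnq1, which shares that locus, was the lower member, dim in Cy5 and at least 3.58-fold lower. H19, a long non-coding RNA, gave 2.42 and -0.49 at its 2 probes, and by the brighter one read 8.99 in the Oct4-EGFP clone, 11.42 in the Nr5a2-EGFP clone and 16.18 in the EGFP clone. The Nr5a2-EGFP clone lay far below the EGFP clone for H19.

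Lists of other germ layers had shares at least 2-fold apart of 16.1% to 29.2%, against 11.7% of all genes. Of 24 primitive streak and mesoderm genes 0 were higher and 7 lower, of 35 endoderm genes 5 and 5, of 40 neural genes 3 and 5, and of 31 Hox genes 1 and 4. The largest ratios in them were those of Stmn2 (-3.05), a neuronal microtubule regulator, and Gpc3 (1.85), a glypican of visceral endoderm. Of 22 primed epiblast genes 4 were higher and 0 lower, Dnmt3a (1.25) among them. In the germ line list, with 5 higher and 5 lower of 52, Stra8, which starts meiosis, was 7.04-fold higher and Hormad1 6.43-fold lower at its brighter probe. Zscan4c, a mark of the 2-cell-like state whose near-identical copies can share a probe's signal, gave -2.93 to -0.17 over 3 probes.

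Signalling pathways of ES cells came next. Of 50 FGF and ERK genes, 1 was higher and 11 lower, with a median of -0.21. Dusp6, the phosphatase induced by ERK, read 16.02 and 13.34, 6.42-fold lower, and Spry1, another feedback inhibitor, 2.23-fold. Spry4 was at least 2.91-fold lower. The higher one was the adaptor Frs2, saturated in Cy5. Etv1, an ERK-induced factor, gave -2.54 and -0.31 at its 2 probes. Of 42 LIF and STAT3 genes, 5 were higher and 12 lower around a median of -0.04. The lower ones held the receptor chains Il6ra (5.14-fold) and Il6st (gp130, 2.21-fold) and Stat5a and Stat5b (3.33-fold and 2.96-fold), and the higher ones held Cebpb and Junb (1.11). The ligand-binding chain Cntfr gave 2.32 and -1.53 at its 2 probes and so has no direction.

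Of 69 Wnt genes, 7 were higher and 12 lower. Among the extracellular members, the inhibitors Sfrp2 (5.58-fold) and Sfrp1 (3.50-fold) and the agonist Rspo1 (4.69-fold) were lower, and the inhibitor Dkk1 was higher. Among receptors Fzd8 (-1.89) and Fzd10 (-1.70) were lower. Wls, which carries Wnt ligands to the surface, was 5.00-fold higher, and the target gene Myc read 7.74 and 9.40, 3.15-fold higher. Sfrp2 read 12.16 in the Oct4-EGFP clone, 9.68 in the Nr5a2-EGFP clone and 11.65 in the EGFP clone, and Rspo1 read 12.37, 10.14 and 12.15. For Sfrp2 and Rspo1 the Nr5a2-EGFP clone was thus the low one of 3. In the joint list of Notch, Hippo, Hedgehog and retinoid genes 7 of 63 were higher and 11 lower. Its median was -0.09. Among the lower were the Notch receptors Notch4 (-2.42) and Notch3 (-1.41) and the glycosyltransferase Lfng (-1.49). The Notch ligands Dll3 (-1.58), Jag2 (-1.35) and Jag1 (-1.12) were lower as well, and the Hippo effector Yap1 (1.15) was higher. These are core members or have large ratios, and Notch genes were not counted apart from the rest of the list. Of 55 Nodal, activin, BMP and TGF-beta genes 5 were higher and 4 lower, the BMP receptor Bmpr1a (1.82) and its target Id3 (1.77) among the former.

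Of 47 p53 target and DNA damage genes, 1 was higher and 14 lower, with a median of -0.43. Pmaip1 (Noxa), a death-inducing target, read 14.85 and 12.06, 6.91-fold lower, Perp 4.73-fold lower and the kinase Plk2 2.93-fold lower. Trp53 itself had -0.95 and its target Cdkn1a -0.95, within 2-fold, and Mdm2 -0.05. The higher member was the growth arrest gene Gadd45g (1.92). Of 81 oxidative phosphorylation genes 0 were higher and 6 lower, with a median of -0.23. That is 7.41% apart, below the 11.7% of all genes. Ndufa4l2 (-2.83) and Cox7a1 (-1.91) had the lowest ratios. Of 84 transporters 7 were higher and 14 lower (25% apart), the fatty acid transporter Slc27a2 (-2.39) and the iron exporter Slc40a1 (2.39) among them. Of 74 chromatin genes 10 were higher and 4 lower, with the SWI/SNF subunit Arid1a (1.82) and the demethylase Kdm6a (1.42) among the higher. Of 54 interferon and MHC class I genes 6 were higher and 2 lower (14.8% apart, near the share of all genes). Among the higher were Ifi27 (6.18-fold), the GTPase Igtp (3.98-fold) and the MHC light chain B2m (2.83-fold).

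Genes that Nr5a2 is known for in liver, gut and steroid-making tissue had a median of -0.05, near the 0.01 of all genes. Of 30 measured, 2 were higher and 4 lower, 20% against 11.7% of all genes. The higher ones were Apoa4 (1.01) and Myc, and the lower ones Nr0b1, Ccnd1 (-1.26), the phospholipid exporter Abcb4 (-1.13) and Hnf4a (-1.04). Of 50 nuclear receptors and cofactors, 4 were higher and 7 lower, the vitamin D receptor Vdr (5.18-fold higher) and Ncoa2 (3.12-fold) among the higher. Nr5a1, the closest relative of Nr5a2, had -0.75. Of 77 ribosomal protein genes 0 were at least 2-fold apart in either direction, with a median of 0.04, or 0.39 with the repeat reading. Saturation in at least 1 dye touched 14 of them. Of 20 reference genes 2 were higher, Actb (1.44, or 0.61 with the repeat reading) and B2m, and 0 were lower, with a median of 0.36, or 0.58 with the repeat reading; Gapdh had 0.01.

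**Figure D4:**
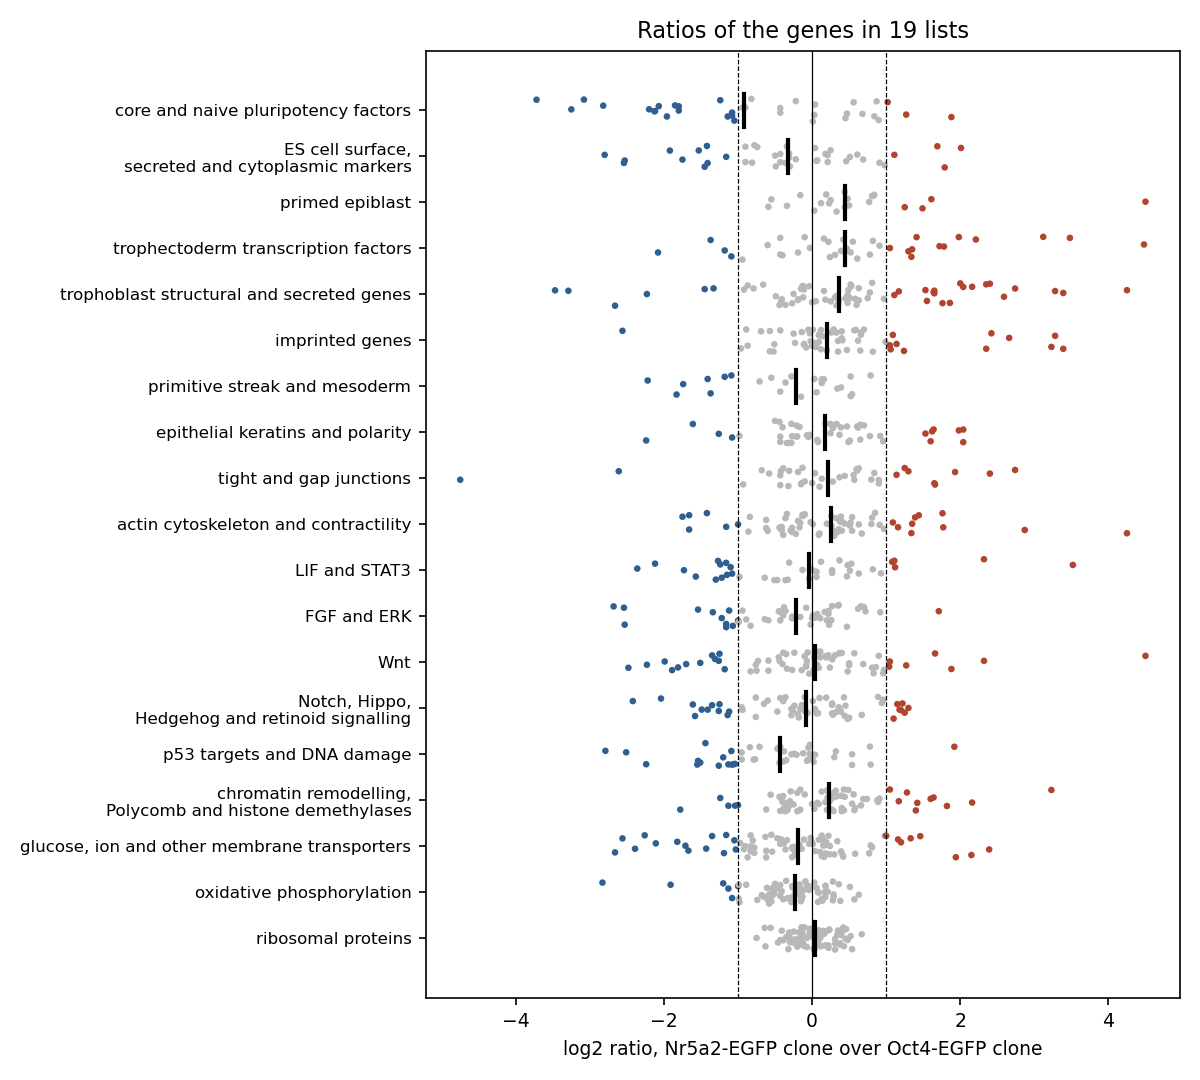
Each point is a gene, placed by its log2 ratio of the Nr5a2-EGFP clone over the Oct4-EGFP clone, in 19 of the 48 lists; black bars are list medians and dashed lines mark 2-fold. Pluripotency factors have the lowest median (-0.92) of the lists drawn, and ribosomal proteins all lie inside the dashed lines.

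The Nr5a2-EGFP clone was read in Cy5 on both arrays, and this was the measurement that was repeated; whether both channels held the same RNA extract is not stated in the labels, so the spread between readings may be technical. The readings differed with an SD of 0.286 on the log2 scale, and by at least 2-fold for 390 of 26032 genes. With the other reading in place, 1088 of 1171 higher genes (92.9%) and 1736 of 1884 lower genes (92.1%) stayed at least 2-fold apart in the same direction; both ratios share the Cy3 channel of the Oct4-EGFP clone. At 4-fold 149 of 152 and 333 of 334 did.

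The Cy5 reading moved with the Cy3 level on its own array. Among the 95 genes whose Cy3 level in the Oct4-EGFP clone exceeded that of the EGFP clone at least 8-fold, the Nr5a2-EGFP clone read a median of 0.68 higher (log2) on the array with the Oct4-EGFP clone, and 91 of them read higher there. Among the 45 genes with a Cy3 level at least 8-fold lower, it read a median of 0.29 lower, and among the 21794 genes within 2-fold the median difference was 0.00. Spock2 read 12.25 beside the Oct4-EGFP clone at 15.63 and 9.97 beside the EGFP clone at 11.79. Stom read 9.41 and 7.61, and Fgf4 13.64 and 10.71, in the same order. Ddx3y, a Y-linked helicase gene chosen after its values were seen, was lower on this array in both dyes: it read 7.64 beside the Oct4-EGFP clone at 7.01 and 10.66 beside the EGFP clone at 12.11. The part that the Cy3 signal plays in the ratios was not tested. With the other reading the 39 genes at least 8-fold lower had a median log2 ratio of -4.20 instead of -3.32, and the 23 at least 8-fold higher 3.57 instead of 3.50. Esrrb was then -5.17 instead of -3.72, Nr0b1 -4.67 instead of -3.25 and Stom -5.01 instead of -3.20.

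**Figure D5:**
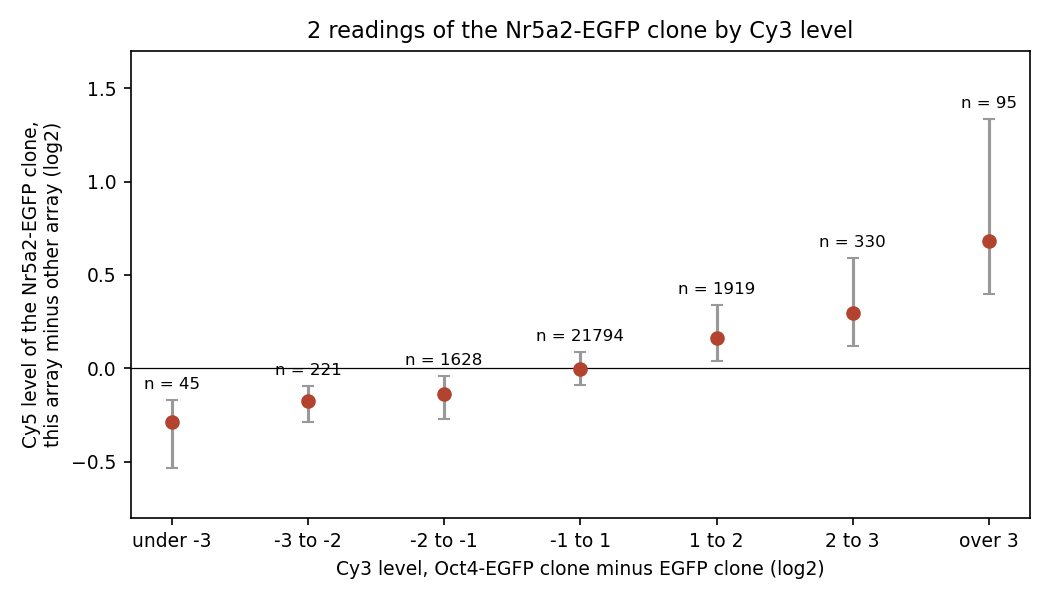
Points are the median of the Nr5a2-EGFP clone's Cy5 level on this array minus that on the other, in classes of genes by the Cy3 difference between the Oct4-EGFP and EGFP clones, and bars span the quartiles. The median goes from -0.29 in the lowest class to 0.68 in the highest.

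Probes of the same gene were less uniform than spots of the same probe. Of 268 higher genes with several probes above background, 74 (27.6%) were at least 2-fold higher at every probe and 208 (77.6%) above 0 at every probe. Of 374 lower genes the numbers were 101 (27.0%) and 282 (75.4%). With an official symbol, both dyes above background and unsaturated, either reading and every probe past 2-fold, there were 653 higher and 1015 lower genes.

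The genes at least 2-fold apart were not spread evenly over the chromosomes. On chromosome 1, 115 of 1455 genes (7.90%) were higher, and on the X chromosome 84 of 1057 (7.95%), against 4.49% of all genes; on chromosome 17 it was 2.57%. Most of the higher genes of chromosome 1 lay past its first 70 Mb, a boundary set after the values were seen: there 99 of 1010 genes (9.80%) were higher with a median of 0.17, and before it 16 of 445 (3.60%) with a median of -0.02. The median ratio to the EGFP clone in the same parts, on the other array, was 0.22 and 0.04. The higher ones past 70 Mb included Chil1 and, chosen after their values were seen, Tmem37 (2.81), Arl4c (2.62), Igfbp5 (2.54), Ccdc93 (2.49) and the circadian gene Per2 (2.41). Among 10 Mb windows of at least 20 genes, the first of chromosome 14 had the highest median and so heads a ranking. The next median was 0.45 (chromosome 1, 120 to 130 Mb) and the lowest -0.29 (chromosome 12, 20 to 30 Mb). In the first 10 Mb of chromosome 14, 12 of 54 genes were higher and 1 lower, with a median of 0.52. They were mostly predicted genes such as Gm5796 (1.65), Gm5797 (1.57) and Gm3115 (1.49), also chosen after their values were seen, in a cluster of duplicated genes whose copies can share a probe's signal.

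Among 152 groups of at least 12 genes with the same symbol stem, the largest share at least 2-fold apart was in the Ppm protein phosphatases, with 2 higher and 4 lower of 12. That is 50%, against 11.7% of all genes. The groups named here head a ranking by this share and are small, so a few genes set it. The Acot acyl-CoA thioesterases had 0 higher and 4 lower of 12 with a median of -0.51, and the synaptotagmins 2 and 4 of 16. The Krüppel-like factors, with 2 higher and 3 lower of 15, divided by member: Klf2, Klf4 and Klf5 were lower, and Klf6 and Klf13 (both 1.72, the latter with 0.67 at its other probe and chosen after its value was seen) higher.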

How the data were processed

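RNA of 3 clones was labelled by reverse transcription with direct dye incorporation and hybridised on 2 two-colour Agilent arrays (design 026655). Spot intensity, background and flags were written by Feature Extraction 10.7.3.1 per the file headers (9.3.2.1 per the submitters' processing notes), and probe positions are mm9 per the file headers. The deposited log10 ratio (Cy5 over Cy3) and the authors' log2 value table, whose scale and centring are not given in the sources used here (r = 0.997 with the software's ratio, median 0.04), served as alternatives. Mean intensity, as deposited, was corrected against the local background median with normexp (offset 50) and normalised by loess within the array in limma 3.58.1 (R 4.3.3), control and outlier spots at weight 0; levels came from Aquantile scaling. The loess step assumes that most genes do not differ between the clones, which was not tested here; the code was tested on simulated data. Spots of a probe were averaged, and the brightest probe stood for a gene. Of the probes, 66.4% were named through RefSeq by accession, and the rest keep the file's name. A bound sets the bright dye against the dim dye's level or the lowest level well above background, whichever is higher, or against a saturated value. No test was made.

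Named genes were all probes of Nr5a2 and Pou5f1, the 20 highest and 20 lowest genes at least 2-fold apart with either reading and at every probe, the 10 largest bounds in each direction, and list members that were core or had large ratios. Members and lists were chosen with earlier results of these data known, and 5 entries listed in error (Rex1bd, Myt1, Hexim1, Slfn9 and Fut3) were removed after values were seen. The values of 1 gene among the 20 lowest are not reported here.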

Additional observations from a re-analysis of the deposited data

How the results depend on the processing

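Of the 9 alternatives, 7 left the count of higher genes within 1.5 times of 1173; the software's ratio gave 1943 and the authors' values gave 2027. The count of lower genes, 1884, stayed within 1.5 times under all 9, from 1663 (median centring) to 2634 (the software's ratio). Median centring moved the median of all genes from 0.01 to 0.09 and the share of higher genes among those apart from 38.4% to 47.1%. Of 422 named genes and list members at least 2-fold apart, 422 stayed so with plain background subtraction, 402 with median centring, 412 with the software's ratio, 416 with the authors' table, 393 with the other Cy5 reading and 383 with the mean over probes. Pax6 alone changed sign, to -0.003 with the mean over probes; the alternative averages probes that disagree. No paired analysis was possible because the comparison has 1 array. Signal limits 1083 and 519 genes to bounds on the dim side, and saturation affects 1134 genes in Cy5 and 315 in Cy3. The 307 saturated in both have no bound, and neither do genes whose saturated dye is the dimmer.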
